A study of Mus musculus with 6 samples.

Results

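The genes described here encode the apolipoproteins that the liver puts on very low density lipoprotein (VLDL) and high density lipoprotein (HDL), together with the lipid transfer protein that loads VLDL. They are *Apob*, *Mttp*, *Apoa1*, *Apoa2*, *Apoa4*, *Apoa5*, *Apoc1*, *Apoc2*, *Apoc3* and *Apoe*. They were taken by gene symbol, and each of the 10 symbols named 1 of the 23282 genes in the count files and passed the filter on low counts, as did 14076 genes in all. Liver RNA came from 3 liver-specific *Tcf7l2* knockout mice (KO, Alb-Cre with both *Tcf7l2* alleles floxed at exon 5) and 3 wild-type littermates (WT, the same floxed alleles without Cre), and 1 library was taken as 1 mouse. The albumin promoter, which hepatocytes use, drove Cre, and whole liver also holds cells that do not use it. The mice were male C57BL/6N by the methods (C57BL/6 by the labels) and 12 weeks old by the labels. All of them had been fasted for 24 h and then refed normal chow for 24 h. Libraries were named by genotype and a label number (KO 7-2, 7-3 and 8-3; WT 7-2, 8-1 and 8-3), and what the number stands for is not given in the sources used here.

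Hepatocytes build VLDL around a single molecule of apolipoprotein B, onto which microsomal triglyceride transfer protein moves lipid in the endoplasmic reticulum. The smaller apolipoproteins exchange between VLDL, HDL and remnants, where they activate or inhibit lipases and bind to receptors. Secretion of VLDL is the main route by which the liver exports triglyceride, which it also stores when fatty acid synthesis runs high after refeeding.

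The genes lie on 5 chromosomes, and 7 of the 10 sit in 2 clusters (RefSeq coordinates on GRCm38.p6, which is mm10). *Apoa1*, *Apoc3*, *Apoa4* and *Apoa5* span 43292 bases of chromosome 9 (46228630 to 46271921). *Apoc2*, *Apoc1* and *Apoe* span 29732 bases of chromosome 7 (19671579 to 19701310), with *Apoc4*, another liver apolipoprotein, among them. *Apob* is on chromosome 12 (7977629 to 8016839), *Mttp* on chromosome 3 (138089855 to 138143418) and *Apoa2* on chromosome 1 (171221564 to 171226379).

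Windows around the start sites (250 bases before and 50 from the site on, RefSeq, GRCm38.p6) were present for 8 of the 10 genes, in 12 windows. They were searched on both strands for the TCF/LEF core that the protein made from *Tcf7l2* binds (CTTTGAT or CTTTGAA), for the HNF4 letters CAAAGTCCA and for the FOXA letters TGTTTAC. The 3 matches found lay in different windows and did not overlap each other. The core with A, on the strand opposite to the gene, stood in *Apob* at positions -44 to -38 from the start site, and 8.65% of 32851 mouse windows of that length held either form of the core. FOXA letters stood in an *Apoa2* window at -77 to -71 and in 1 of 3 *Apoe* windows at -5 to 2, against 3.65% of all windows. The HNF4 letters stood in none of the members' windows and in 0.475% of all. Only exact letters were searched, so a stretch that differs from them by a letter was not marked, and the absence of a match does not show the absence of a site. 4 of the windows are printed below because they head the assembly pair, the gene with the widest spread between mice and an HDL gene with a FOXA match. They read 5′ to 3′ on the strand of the gene, with matched letters in capitals: *Apob* from chr12:7977427-7977726 on the plus strand, *Mttp* from chr3:138143369-138143668 on the minus strand, *Apoa4* from chr9:46240594-46240893 on the plus strand, and the first *Apoa2* window from chr1:171224804-171225103 on the plus strand.
Apob: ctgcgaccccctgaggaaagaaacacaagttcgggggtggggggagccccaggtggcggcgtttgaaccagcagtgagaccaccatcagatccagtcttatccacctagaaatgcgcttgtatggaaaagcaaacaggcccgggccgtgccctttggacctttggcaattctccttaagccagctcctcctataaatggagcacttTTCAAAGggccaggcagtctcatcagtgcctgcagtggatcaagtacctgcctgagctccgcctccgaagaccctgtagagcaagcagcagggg
Mttp: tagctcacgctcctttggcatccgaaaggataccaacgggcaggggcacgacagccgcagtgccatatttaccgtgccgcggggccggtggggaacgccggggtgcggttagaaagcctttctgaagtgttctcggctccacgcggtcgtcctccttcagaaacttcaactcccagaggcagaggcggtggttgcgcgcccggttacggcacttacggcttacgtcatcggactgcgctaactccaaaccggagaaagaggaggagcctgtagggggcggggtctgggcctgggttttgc
Apoa4: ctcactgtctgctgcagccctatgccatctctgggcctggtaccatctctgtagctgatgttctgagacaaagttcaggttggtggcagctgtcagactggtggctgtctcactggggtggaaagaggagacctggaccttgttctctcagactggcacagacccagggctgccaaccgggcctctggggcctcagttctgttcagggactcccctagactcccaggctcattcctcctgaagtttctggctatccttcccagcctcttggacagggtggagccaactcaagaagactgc
Apoa2: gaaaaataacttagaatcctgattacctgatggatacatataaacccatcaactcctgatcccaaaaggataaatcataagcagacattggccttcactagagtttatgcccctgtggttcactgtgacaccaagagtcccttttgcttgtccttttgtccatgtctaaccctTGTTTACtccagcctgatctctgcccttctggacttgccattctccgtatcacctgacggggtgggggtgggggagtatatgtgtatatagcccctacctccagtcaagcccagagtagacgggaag

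The deposited values were raw counts, with 60619938 to 68760956 per KO library and 67299258 to 133384586 per WT library. The *Mup* genes encode major urinary proteins, which male mouse liver secretes in bulk, and took 23.5% to 35.8% of the counts in KO libraries and 38.9% to 64.4% in WT libraries. Values are given as CPM, the count relative to the library size scaled by its TMM factor, and a gene was called at a Benjamini-Hochberg adjusted p under 0.05 from edgeR's quasi-likelihood test of KO against WT. The targeted gene, *Tcf7l2*, stood at 3.31, 2.74 and 3.33 CPM in KO libraries and at 4.87, 6.13 and 6.85 CPM in WT libraries. All KO libraries lay below all WT libraries, at a log2 fold change of -0.93 ± 0.19 (SE), with an adjusted p of 0.0856 by edgeR and of 0.00401 by DESeq2. Its counts cover the whole gene and not the floxed exon alone. The 6 hepatocyte markers (such as *Alb*, *Ttr* and *Fgb*) summed to 54500 to 77300 CPM in KO livers and to 66500 to 70100 CPM in WT livers. Of these, 3 had a positive and 3 a negative fold change. *Fgb* was lower in all KO than in all WT livers (log2 fold change -0.88, adjusted p = 0.233 by edgeR and 0.0100 by DESeq2). Stellate cell markers summed to 103 to 105 CPM in KO livers, against 64.1 to 80.3 CPM in WT livers (7 of 10 with a positive fold change). Sinusoidal endothelial markers summed to 89.8 to 94.4 CPM in KO livers, against 73.2 to 78.0 CPM in WT livers (10 of 10 positive). For Kupffer cell and macrophage markers the sums were 86.3 to 92.7 CPM in KO and 89.4 to 112 CPM in WT livers (2 of 10 positive). Their part in the values below was not tested, and in whole liver fewer cells of a type and less RNA per cell cannot be told apart.

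The first question was whether loss of hepatic *Tcf7l2* went with another level of the mRNAs for VLDL assembly and the plasma apolipoproteins after refeeding. None of the 10 genes was called in either direction. By edgeR 0 were higher and 0 lower in KO liver, where 0.448% of all 14076 tested genes were called. At an unadjusted p under 0.05 there were also 0, against 13.5% of all genes, and by DESeq2 there were 0, against 2.93% of the 14681 genes it gave an adjusted p. The KO and WT values overlapped for all 10, whereas they did not overlap for 19.3% of all genes. Fold changes were positive for 4 and negative for 6, their median log2 fold change being -0.03 and their range -0.29 to 0.33, beside a median of -0.02 over all tested genes. The smallest adjusted p was 0.497, for *Mttp*.

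**Figure D1:**
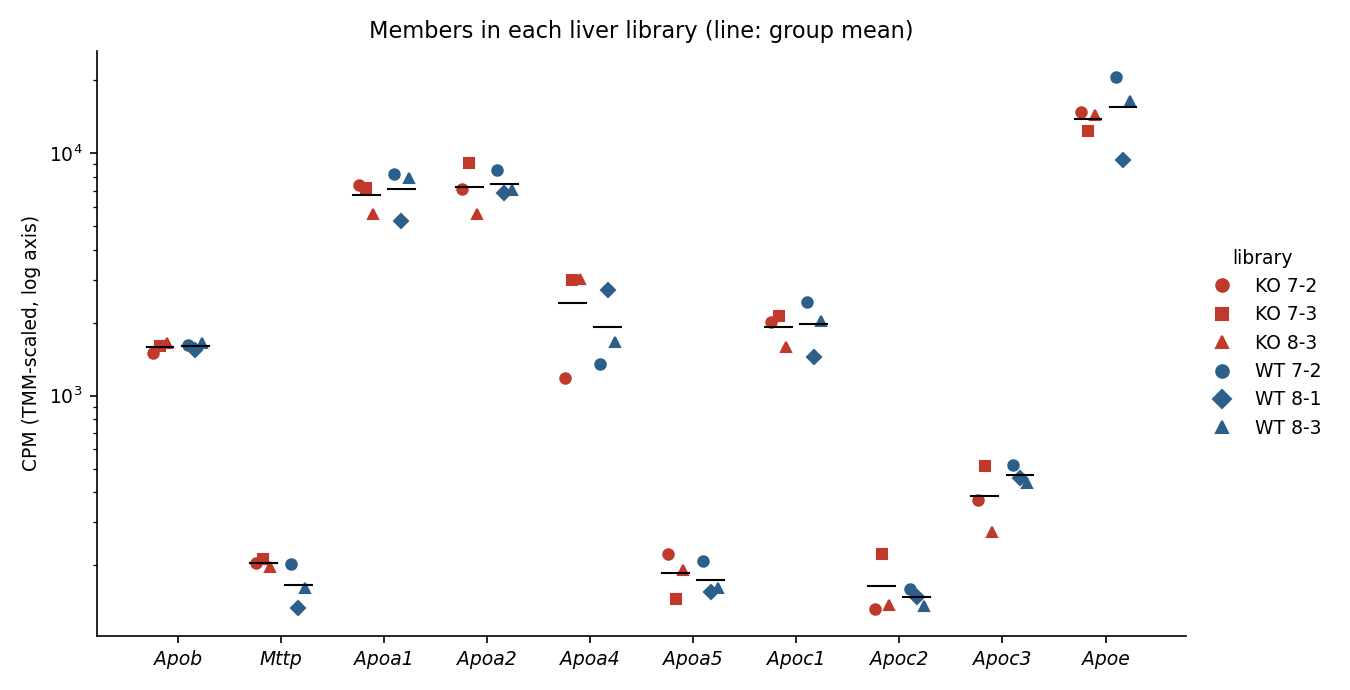
CPM of each gene (log axis) in the 3 KO libraries (red, left of each pair) and the 3 WT libraries (blue, right), with black lines for group means. The groups overlap for every gene. *Apob* spans 1503 to 1653 CPM over all 6 libraries, while *Apoa4* spans 1187 to 3034 CPM and *Apoe* 9422 to 20596 CPM.

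*Apob* encodes the structural protein of VLDL and was the steadiest of the 10 genes. It had 1503, 1595 and 1653 CPM in KO libraries 7-2, 7-3 and 8-3, and 1624, 1540.2 and 1643 CPM in WT libraries 7-2, 8-1 and 8-3. The lowest and the highest value were both in KO livers, and the 6 values lay within 0.14 of each other on the log2 scale. The means were 1584 ± 75.7 CPM in KO and 1602 ± 54.6 CPM in WT livers (SD, n = 3 each), with a log2 fold change of -0.02 (95% interval -0.43 to 0.40, adjusted p = 0.978 from edgeR). That interval covers 0.743-fold to 1.32-fold. In hepatocytes *Apob* mRNA can be edited to give a shorter protein, and gene counts cannot tell edited from unedited mRNA.

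*Mttp* encodes the large subunit of the transfer protein that lipidates apolipoprotein B. It stood at 204, 212 and 196 CPM in KO libraries, and at 202, 133 and 160.2 CPM in WT libraries 7-2, 8-1 and 8-3. The 3 KO livers were close together and lay above WT 8-1 and 8-3, while WT 7-2 fell among them. The mean was 204 ± 8.44 CPM in KO and 165 ± 34.7 CPM in WT livers, a log2 fold change of 0.31 (SE 0.19, 95% interval -0.11 to 0.72, adjusted p = 0.497 from edgeR). With 1 library left out it ran from 0.18 (without WT 8-1) to 0.48 (without WT 7-2), and *Mttp* was not called. As a share of the *Apob* count of the same library, which needs no scaling between libraries, *Mttp* came to 13.6%, 13.3% and 11.8% in KO livers and to 12.4%, 8.62% and 9.75% in WT livers. The groups overlapped here too, since WT 7-2 lay above KO 8-3. The log2 ratio was higher by 0.34 in KO livers (two-sided exact permutation test, p = 0.2, adjusted p = 0.8 over the 6 ratios computed). With 3 mice against 3, this test cannot go below 0.1.

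*Apoa1* and *Apoa2* encode the main proteins of HDL. *Apoa1* had 7377, 7211 and 5599 CPM in KO libraries, against 8179, 5254 and 7895 CPM in WT libraries, with the lowest liver of each genotype far below its other two. Its log2 fold change was -0.08 (95% interval -0.66 to 0.51, adjusted p = 0.927 from edgeR). *Apoa2* had 7103, 9136 and 5607 CPM in KO libraries and 8499, 6867 and 7044 CPM in WT libraries. Both the highest and the lowest *Apoa2* value were in KO livers, and its log2 fold change was -0.04 (95% interval -0.62 to 0.54, adjusted p = 0.966). *Tomm40l* overlaps *Apoa2* in the annotation but held at most 32.1 CPM in any library.

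*Apoa4*, which enlarges secreted VLDL in liver and coats chylomicrons in intestine, varied most between mice. It stood at 1187, 2993 and 3034 CPM in KO libraries 7-2, 7-3 and 8-3, and at 1349, 2716 and 1670.1 CPM in WT libraries 7-2, 8-1 and 8-3. Among KO livers 7-2 was low, among WT livers 7-2 and 8-3 were, and the remaining livers were high, so that the groups were interleaved. The 6 values spanned 1.35 on the log2 scale, the widest range of the 10 genes. The mean was 2405 ± 1055 CPM in KO and 1912 ± 715 CPM in WT livers, and the log2 fold change of 0.33 had the widest interval of the set (-0.52 to 1.18, adjusted p = 0.730 from edgeR). The difference in mean log2 CPM (KO minus WT) was 0.48 among libraries with a leading label number of 7 and 0.51 among those with 8. WT 7-2 stood alone for WT in the first value and KO 8-3 alone for KO in the second, and KO 7-2 lay below WT 7-2. The same difference changed sign between the label numbers for *Apob*, *Apoa5*, *Apoc2* and *Apoe* and kept it for the other members. With 1 library left out the *Apoa4* fold change ran from 0.13 (without KO 8-3) to 0.68 (without WT 8-1). It was also 0.14 without KO 7-3, 0.13 without WT 7-2 and 0.66 without KO 7-2, and *Apoa4* was called in none of these fits. Of the 8 enterocyte markers, *Lct*, *Sis*, *Cdx1* and *Cdx2* had 0 counts throughout. *Fabp2*, which encodes a fatty acid binding protein, stood at 83.6 to 106 CPM, and the markers other than *Fabp2* came to 7 to 25 counts per library together. Which cells the *Fabp2* RNA came from is not shown by whole-liver counts, and a part of intestinal RNA in the *Apoa4* values was not tested.

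The genes whose profile over the 6 libraries was most like that of *Apoa4* were *Zc3h13*, which encodes a zinc finger protein of the m6A methyltransferase complex, *Capn15*, a calpain, and *Slc41a1*, a magnesium transporter. Their log2 CPM, each centred on its own mean, differed from that of *Apoa4* by root mean squares of 0.15, 0.18 and 0.19, beside a median of 0.63 over all tested genes. *Zc3h13* had 8.23, 19.1 and 17.1 CPM in KO libraries and 7.69, 14.0 and 10.9 CPM in WT libraries. These are the closest of 14076 profiles over 6 libraries, so some likeness is given by the choice.

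*Apoa5* encodes a scarce apolipoprotein that promotes the action of lipoprotein lipase. It stood at 223, 145 and 189.9 CPM in KO libraries and at 208, 154 and 160.1 CPM in WT libraries. The highest and the lowest value were both in KO livers, with a log2 fold change of 0.10 (95% interval -0.36 to 0.55, adjusted p = 0.877 from edgeR). In KO library 7-3, *Apoa5* was lowest where *Apoa4* was high, and in KO 7-2 it was highest where *Apoa4* was lowest, although the genes are neighbours on chromosome 9.

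**Figure D2:**
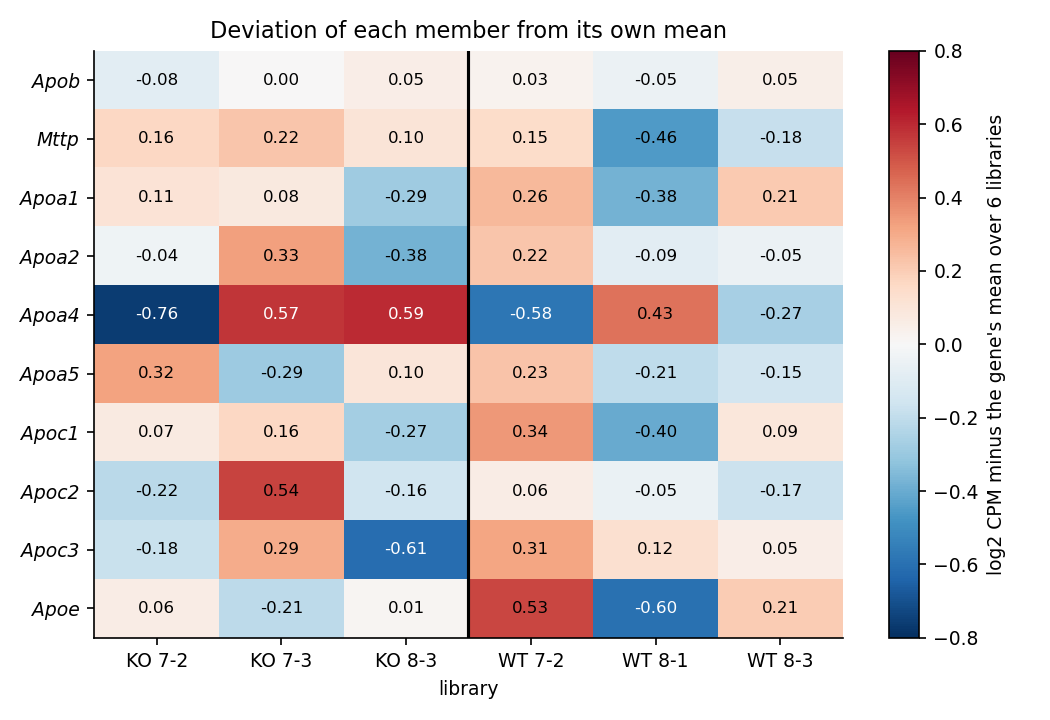
Deviation of each gene (rows) in each library (columns, KO left of the line and WT right of it) from its own mean log2 CPM over the 6 libraries, in log2 units. *Apoa4* reaches -0.76 in KO 7-2 and 0.59 in KO 8-3, *Apoe* 0.53 in WT 7-2 and -0.60 in WT 8-1, and *Apob* stays between -0.08 and 0.05.

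*Apoc1*, *Apoc2* and *Apoc3* encode small proteins that tune lipolysis and uptake. *Apoc1*, whose product hinders binding of remnants to receptors, had 2009, 2141 and 1584 CPM in KO libraries and 2426, 1447 and 2037 CPM in WT libraries. WT livers held both extremes, and the log2 fold change was -0.04 (95% interval -0.59 to 0.51, adjusted p = 0.960 from edgeR). *Apoc2*, whose product is the cofactor of lipoprotein lipase, had 131, 222 and 137 CPM in KO libraries and 159, 147 and 135 CPM in WT libraries. KO 7-3 stood above the other 5 livers, which lay between 131 and 159 CPM, and without it the log2 fold change turned to -0.14, from 0.15 (95% interval -0.34 to 0.64, adjusted p = 0.799) with all libraries. A readthrough transcript of *Apoc4* and *Apoc2* has an entry of its own, which held 38.4% to 40.1% of the *Apoc2* count in every library, so reads of both cannot be told apart in these counts.

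*Apoc3* encodes an inhibitor of lipoprotein lipase and of remnant uptake, and had the most negative fold change of the 10 genes. It had 369.8, 513 and 274 CPM in KO libraries and 519, 456 and 434 CPM in WT libraries. KO 7-2 and KO 8-3 lay below all WT livers, but KO 7-3 lay among them. The mean was 386 ± 120.0 CPM in KO and 469.8 ± 44.3 CPM in WT livers, a log2 fold change of -0.29 (SE 0.24, 95% interval -0.81 to 0.24, adjusted p = 0.623 from edgeR). With 1 library left out it ran from -0.55 (without KO 7-3) to -0.091 (without KO 8-3), and *Apoc3* was not called.

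*Apoe*, the ligand by which remnants bind receptors such as LRP1, took the most counts of the 10 genes. It had 14827, 12313 and 14381 CPM in KO libraries and 20596, 9422 and 16427 CPM in WT libraries. All 3 KO livers lay inside the WT range, which was more than 2-fold wide. The mean was 13840.3 ± 1341 CPM in KO and 15482 ± 5647 CPM in WT livers, with a log2 fold change of -0.16 (SE 0.32, 95% interval -0.87 to 0.55, adjusted p = 0.860 from edgeR).

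**Figure D3:**
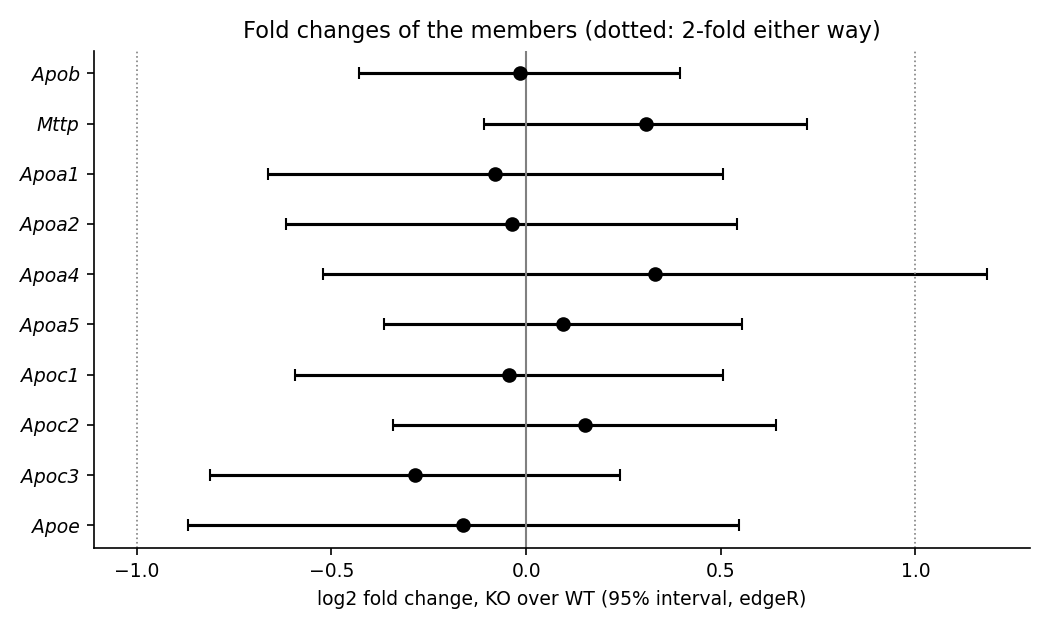
Log2 fold change of KO over WT liver for each gene (point) with its 95% interval from edgeR (bar); the solid line marks no change and the dotted lines 2-fold either way. All 10 intervals cross 0, and 9 of the 10 lie within 2-fold either way, the exception being *Apoa4*, which reaches 1.18.

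Under the TMM scaling, the intervals give the size of difference that 3 livers against 3 left possible. For 9 of the 10 genes the 95% interval lay within 2-fold either way, and for 2 of them within 1.5-fold. These intervals do not show that the genotypes had equal levels, and differences that lie within them were not excluded here. The biological coefficient of variation over all genes was 23.9%.

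The livers that stood high or low differed between genes. WT 7-2 was the highest library for 4 genes (*Apoa1*, *Apoc1*, *Apoc3* and *Apoe*) and WT 8-1 the lowest for 4 (*Mttp*, *Apoa1*, *Apoc1* and *Apoe*). The closest pair of profiles was *Apoa1* with *Apoc1*, which are on different chromosomes and whose centred log2 CPM differed by a root mean square of 0.07. *Apoa2* was closest to *Apoc3* (0.15), and *Apoa4* had no near profile among the members, its closest there being *Apoc2* (0.50). These likenesses describe 6 libraries and carry no test.

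Levels of different genes were compared per kilobase of transcript, with lengths of canonical transcripts in GENCODE. The mean was highest for *Apoa2*, at 14059 ± 3420 CPM per kilobase in KO and 14421 ± 1729 in WT livers, then for *Apoe* (6346 ± 615 in KO and 7098 ± 2589 in WT) and *Apoa1* (4538 ± 663 in KO and 4794 ± 1088 in WT). Each of these 3 lay above the next in all 6 libraries. *Apoc1* (1357 in KO and 1399 in WT) and *Apoa4* (1325 in KO and 1053 in WT) could not be ordered, since *Apoc1* was the higher in 3 of 6 libraries. Below them were *Apoc2* (205 in KO and 184 in WT) and *Apoc3* (158 in KO and 193 in WT), which also changed places in 3 of 6 libraries, then *Apob* (114 in KO and 115 in WT), *Apoa5* (68.9 in KO and 64.5 in WT) and *Mttp* (51.4 in KO and 41.6 in WT). The places of *Apob* and *Apoa5* rest on the length used. By the median length of coding transcripts *Apoa5* came to 186 in KO and 174 in WT livers, beside 159.8 in KO and 195 in WT livers for *Apoc3*, and *Apoc3* lay above *Apob* in 5 of 6 libraries with the canonical length and in 2 of 6 with the median length.

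Ratios of counts within a library compared neighbours in the gene clusters without any scaling between libraries. *Apoa4* came to 16.1%, 41.5% and 54.2% of the *Apoa1* count in KO libraries, and to 16.5%, 51.7% and 21.2% in WT libraries. *Apoc3* came to 5.01%, 7.11% and 4.90% of *Apoa1* in KO libraries and to 6.35%, 8.68% and 5.50% in WT libraries. *Apoa5* came to between 2.01% and 3.39% of *Apoa1* in KO and between 2.03% and 2.93% in WT livers. So within 1 cluster the ratio of *Apoa4* to *Apoa1* spanned 1.75 on the log2 scale over the 6 livers, and that of *Apoa5* to *Apoa1* 0.75. On chromosome 7, *Apoc1* came to 11.0% to 17.4% of the *Apoe* count in KO and 11.8% to 15.4% in WT livers. *Apoc2* came to 0.887%, 1.81% and 0.950% of *Apoe* in KO libraries and to 0.773%, 1.56% and 0.824% in WT libraries, with 1 liver of each genotype above its other two. The groups overlapped in all 6 ratios, and p from two-sided exact permutation tests was 0.2 to 0.8, with an adjusted p of 0.8 for each of the 6 ratios.

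**Figure D4:**
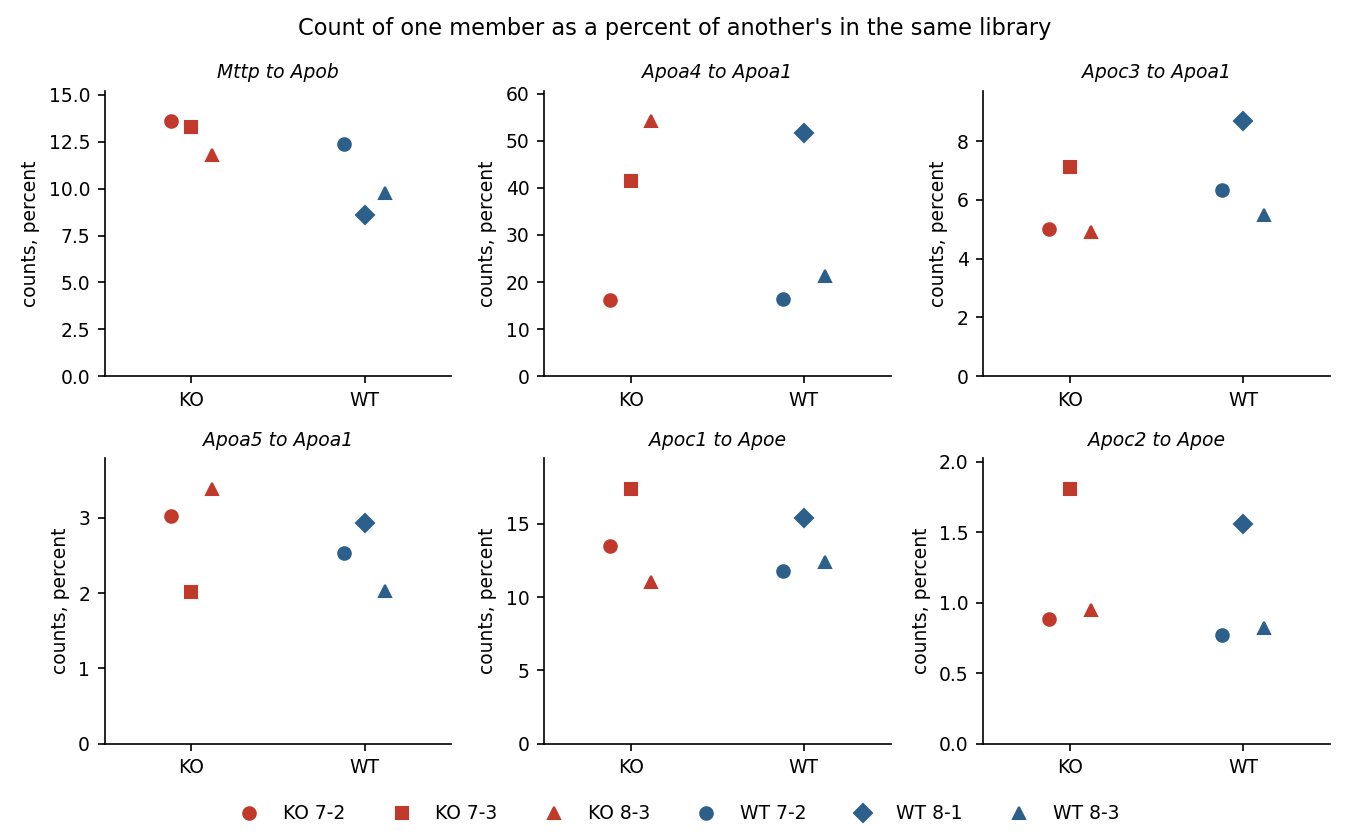
Count of the first gene as a percent of the count of the second in the same library, for 6 pairs, with KO libraries in red on the left and WT libraries in blue on the right of each panel and axes from 0. KO and WT overlap in each panel, and *Apoa4* to *Apoa1* runs over 16.1% to 54.2% within KO and 16.5% to 51.7% within WT.

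Together the 10 genes took 4.88%, 4.03% and 4.13% of all counts in KO libraries and 4.32%, 1.77% and 3.11% in WT libraries. The KO mean of 4.35% ± 0.465 lay above the WT mean of 3.07% ± 1.28 by 1.28 percentage points (two-sided exact permutation test, p = 0.3), with WT 7-2 inside the KO range. WT 8-1, with the lowest share, was the library with the largest share of *Mup* counts (64.4%). Of the counts outside the *Mup* genes, the 10 genes took 6.38%, 6.13% and 6.43% in KO and 7.07%, 4.97% and 6.38% in WT libraries, a difference of 0.173 percentage points (two-sided exact permutation test, p = 0.9).

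The direction of the small differences moved with the scaling. With library sizes alone, which leaves the *Mup* share in the sizes, all 10 fold changes were positive (0.30 to 0.99 on the log2 scale), while the median of all tested genes moved to 0.61. Relative to that shift the median of the 10 genes (0.57) lay near the median of all. After quantile normalisation of log2 counts, fitted with limma, 9 of the 10 were positive, with a median of 0.22 beside 0.01 for all genes. *Apoe* had the largest value there, at 0.75. The study also describes quantile normalisation, using edgeR, but its exact steps and cut-offs were not repeated here. DESeq2, RLE and upper-quartile factors and TMM without the *Mup* genes kept all 10 signs of the TMM values. None of the 10 genes was called under any of these scalings.

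**Figure D5:**
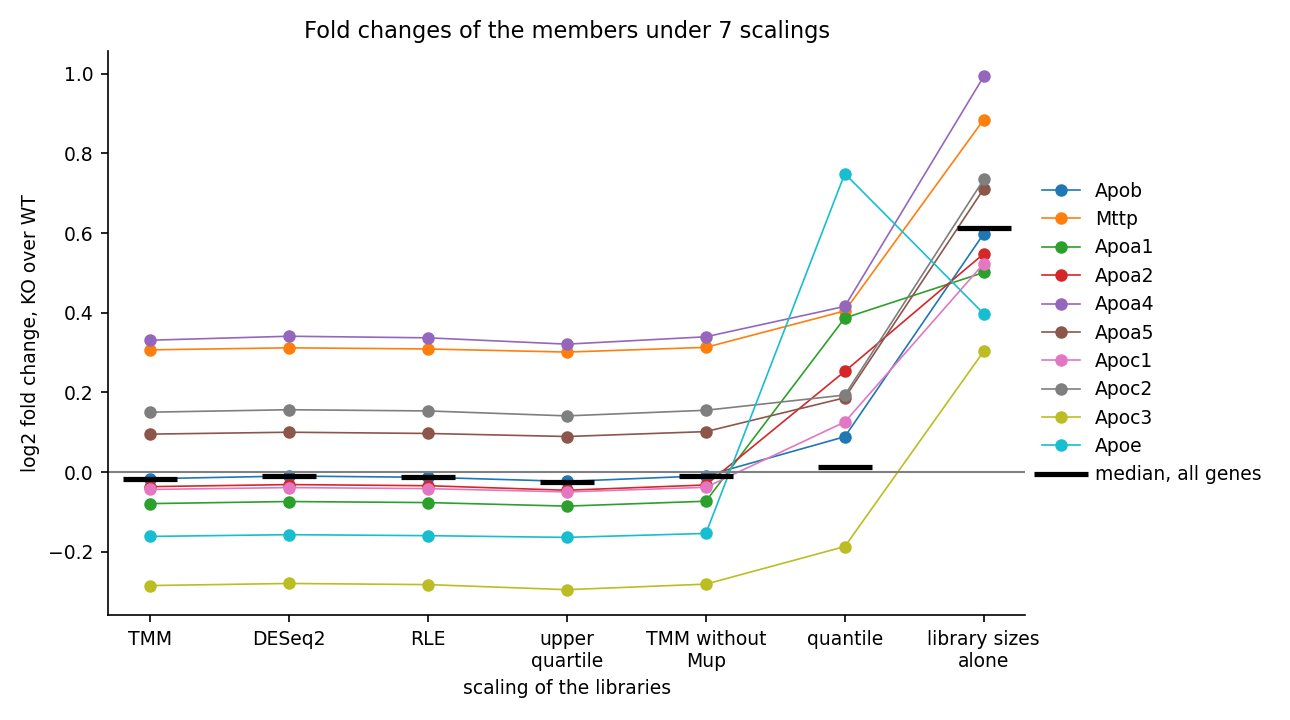
Log2 fold change of KO over WT for each gene (coloured points, joined for tracing only) under 7 scalings of the libraries, with the median of all tested genes as black bars. Points stay within 0.02 of their TMM values under the next 4 scalings, and with library sizes alone all lie above 0 (0.30 to 0.99) around the median of all genes, 0.61.

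Genes that act beside the members were taken as 6 lists, of 93 tested genes in all. Of these 0 were called by edgeR, 17 (18.3%) had an unadjusted p under 0.05 (9 higher and 8 lower), against 13.5% of all genes, and 7 (7.53%) were called by DESeq2 (4 higher and 3 lower), against 2.93%. KO and WT did not overlap for 27 of the 93 (29.0%), against 19.3% of all genes. The lists were chosen with results of these data known, so these shares are a description.

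The list for lipidation and secretion of VLDL held 29 genes, with 13 positive and 16 negative fold changes and a median of -0.05. *Pla2g12b*, which encodes a secreted phospholipase-like protein needed for normal VLDL lipidation in mice, had 16.0, 15.6 and 14.1 CPM in KO libraries and 23.2, 22.4 and 26.3 CPM in WT libraries. All KO livers lay below all WT livers, with a log2 fold change of -0.65 (SE 0.14), and the gene was called by DESeq2 (adjusted p = 0.00791) but not by edgeR (0.0898). *Mia2*, whose product helps to load lipoproteins into export vesicles, had 30.3, 36.4 and 40.7 CPM in KO libraries and 23.6, 21.8 and 22.4 CPM in WT libraries. All KO livers lay above all WT livers (log2 fold change 0.66, SE 0.15), and it too was called by DESeq2 (adjusted p = 0.0100) and not by edgeR (0.113). *Sort1*, which encodes the sorting receptor sortilin that binds apolipoprotein B in the Golgi, had 6.27 ± 0.134 CPM in KO and 8.61 ± 0.817 CPM in WT livers (log2 fold change -0.46, adjusted p = 0.228 from edgeR).

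Of the 4 genes for *Apob* mRNA editing, 0 were called by edgeR and 1 was higher by DESeq2. *Rbm47*, which encodes an RNA-binding cofactor of the editing enzyme, had 32.2, 30.9 and 31.6 CPM in KO libraries and 19.0, 22.3 and 22.4 CPM in WT libraries. KO livers lay above all WT livers, at a log2 fold change of 0.57 ± 0.14 (SE), with an adjusted p of 0.131 by edgeR and of 0.0178 by DESeq2. *A1cf*, another cofactor, had 23.6, 36.1 and 32.7 CPM in KO libraries and 22.6, 16.1 and 19.8 CPM in WT libraries, again without overlap (log2 fold change 0.66 ± 0.19 SE, with adjusted p = 0.193 by edgeR). *Syncrip*, which encodes an RNA-binding protein that can join the complex, had a fold change of 0.25 with overlapping groups. *Apobec1*, the deaminase itself, had 7.13, 19.6 and 6.56 CPM in KO and 18.7, 18.4 and 8.89 CPM in WT libraries, and was named after its values were seen.

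Among 10 genes of lipoprotein receptors and remnant uptake, 0 were called by edgeR. *Vldlr*, the VLDL receptor gene, is scarce in liver and had 5, 3 and 3 counts in KO libraries and 14, 31 and 19 counts in WT libraries. All KO libraries lay below all WT libraries (log2 fold change -2.65 ± 0.54 SE, with adjusted p = 0.0856 by edgeR and 0.0465 by DESeq2), at levels of at most 0.370 CPM. With fewer than 10 counts in each KO library, *Vldlr* passed the filter on low counts only through the WT libraries, where it was higher. Its values are therefore a description. Without that filter its adjusted p by edgeR was 0.122. *Lrp1*, the remnant receptor gene, had 432 ± 35.3 CPM in KO and 334 ± 35.4 CPM in WT livers (log2 fold change 0.37, adjusted p = 0.388).

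Among 12 genes of lipases and plasma remodelling, 0 were called by edgeR. *Lipg*, endothelial lipase, had 3.74, 3.45 and 7.08 CPM in KO libraries and 2.66, 1.71 and 2.17 CPM in WT libraries, without overlap (log2 fold change 1.13 ± 0.30 SE, with adjusted p = 0.162 by edgeR and 0.0163 by DESeq2). Without KO 8-3, the highest library, it was 0.72. Endothelial markers lay higher in KO livers as given above, and their part in this value was not tested. *Lmf1*, a factor for lipase maturation, stood at -0.47 on the log2 scale (adjusted p = 0.319) and *Lcat*, the cholesterol-esterifying enzyme of HDL, one of -0.35 (adjusted p = 0.417).

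Of 26 regulators of apolipoprotein genes, 0 were called by edgeR and 2 by DESeq2. *Srebf1*, which encodes the lipogenic factors SREBP1a and SREBP1c, had 113, 139 and 156 CPM in KO libraries and 58.5, 64.3 and 95.4 CPM in WT libraries. All KO livers lay above all WT livers (log2 fold change 0.90 ± 0.22 SE, with adjusted p = 0.132 by edgeR and 0.00243 by DESeq2). *Nr0b2*, the corepressor SHP, had 8.96, 6.32 and 7.47 CPM in KO libraries and 10.5, 12.2 and 13.2 CPM in WT libraries, without overlap (-0.66, SE 0.17, adjusted p = 0.158 from edgeR and 0.0447 from DESeq2). For *Nr1d1*, the clock repressor REV-ERB alpha, the fold change was likewise -0.66 (SE 0.21), at an adjusted p of 0.224. *Hnf4a*, a nuclear receptor that activates most of the apolipoprotein genes, had 231, 264 and 275 CPM in KO and 275, 229 and 194 CPM in WT libraries, and *Creb3l3*, an activator of *Apoa4*, had 136, 113 and 168 CPM in KO and 147, 114 and 113 CPM in WT libraries. Both overlapped between the genotypes, and both were named after their values were seen.

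Of 13 other apolipoprotein genes 12 were tested, of which 0 were called by edgeR and 0 by DESeq2, and an unadjusted p under 0.05 was reached by 1 higher and 1 lower gene. *Apol7a*, of a family of intracellular apolipoprotein L genes, had 60.2, 58.2 and 61.3 CPM in KO libraries and 47.7, 31.1 and 47.3 CPM in WT libraries (log2 fold change 0.51 ± 0.18 SE, with adjusted p = 0.271 by edgeR). Its relative *Apol9a* had 31.2, 28.2 and 32.9 CPM in KO libraries and 41.5, 35.4 and 42.5 CPM in WT libraries (-0.37, SE 0.14, adjusted p = 0.309), a value that is uncertain because *Apol9b* is a near copy and multiple alignments were counted. *Clu*, which encodes the HDL-associated chaperone clusterin, had 508, 614 and 576 CPM in KO libraries and 676, 774 and 713 CPM in WT libraries, without overlap (-0.35, SE 0.18, adjusted p = 0.423).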

How the data were processed

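The deposited values were raw counts per gene, which the authors made from unique and multiple alignments to mm10 with Bedtools, with TopHat as the aligner that the submitters' notes name. These counts precede the quantile normalisation that the study describes. Neither the annotation nor the aligner's version is stated in the sources used here. Multiple alignments can spread reads over near copies. For the 10 members, with at least 9215 counts in every library, counting error is small, while for scarce genes such as *Vldlr* it is large.

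Genes were kept with filterByExpr (min.count 10, min.total.count 15) and tested with edgeR 4.0.16 (quasi-likelihood, TMM, no covariate, limma 3.58.1, R 4.3.3), with DESeq2 1.42.0 as an alternative. Ratios and shares were tested with two-sided exact permutation tests, and the code was tested on simulated data. *Mup* genes were 22 entries, found by symbol, RefSeq synonym or accession. No library copied another (smallest chi-square per degree of freedom 199).

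Members and lists were chosen with earlier results of these data known. The rule named all 10 members, from each list the genes called or else up to 3 with the smallest p, the 3 genes most like the member of widest range, and *Tcf7l2*. A gene that the rule takes is not reported here. Alternatives were other scalings, no filter, each library left out, replicate blocks, and 2 chosen after seeing the data: *Apoc2* summed with the readthrough entry, and median transcript lengths. The labels do not say that same-numbered mice share a litter or batch.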

Additional observations from a re-analysis of the deposited data

How the results depend on the processing

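None of the 10 members was called under any of the alternatives, and their signs were kept in 78 of 90 values from other scalings, filters and blocks and in 50 of 60 values with 1 library left out. Library sizes alone, which leave the *Mup* share in the sizes, turned *Apob* (0.60 on the log2 scale), *Apoa1* (0.50), *Apoa2* (0.55), *Apoc1* (0.52), *Apoc3* (0.30) and *Apoe* (0.40) positive, and of the other named genes *Apol9a* (0.24), *Clu* (0.28), *Sort1* (0.17), *Lmf1* (0.10), *Lcat* (0.25) and *Nr1d1* (0.0028). Quantile normalisation turned *Apob* (0.089), *Apoa1* (0.39), *Apoa2* (0.25), *Apoc1* (0.13) and *Apoe* (0.75) positive, and the cause was not tested. With 1 library left out, log2 fold changes crossed 0 for *Apob* (-0.049 to 0.019), *Apoa1* (-0.25 to 0.038), *Apoa2* (-0.23 to 0.12), *Apoa5* (-0.055 to 0.25), *Apoc1* (-0.22 to 0.14), *Apoc2* (-0.14 to 0.28) and *Apoe* (-0.41 to 0.10). The log2 differences of ratios crossed 0 for *Apoa4* to *Apoa1* (-0.021 to 0.85), *Apoa5* to *Apoa1* (-0.0043 to 0.37), *Apoc1* to *Apoe* (-0.10 to 0.23) and *Apoc2* to *Apoe* (-0.12 to 0.53), and kept their sign for *Mttp* to *Apob* (0.23 to 0.49) and *Apoc3* to *Apoa1* (-0.44 to -0.08).

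Over all genes, 63 were called (10 higher and 53 lower) and 430 by DESeq2 (189 and 241), 3020 with library sizes alone (2932 and 88), 96 without the filter on low counts (23 higher) and 24 to 87 with 1 library left out (3 to 18 higher and 21 to 69 lower). Of the 93 listed pathway genes, 7 were called by DESeq2 and 24 with library sizes alone. *Tcf7l2* was called by DESeq2 (-0.92) and by no other fit. Adding the readthrough entry to *Apoc2* gave it a fold change of 0.14.

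The replicate block on the leading label number called 39 genes (6 higher and 33 lower), and that on the whole number, with 4 libraries, called 48 (33 lower) and turned *Apoc2* to -0.13. Neither called a member. Deviations from the group means of same-numbered libraries correlated at 0.01 and -0.01. Those of KO 7-2 with WT 8-3 correlated at 0.11, and those of KO 8-3 with WT 7-2 at -0.01. So few libraries cannot tell whether same-numbered mice share a litter or batch. With 3 mice a genotype, the 95% intervals reached from 0.547-fold (*Apoe*) to 2.27-fold (*Apoa4*), and they hold for the TMM scaling. Library sizes alone moved the fold changes of *Apob*, *Mttp*, *Apoa2*, *Apoa5*, *Apoc1*, *Apoc2* and *Apoc3* above their own intervals. Quantile normalisation moved that of *Apoe* above its own. The fold changes of *Apoa1* and *Apoa4* stayed within theirs under both. The lowest count of any member in any library was 9215 (*Apoc2*).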

Other observations

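*Angptl8*, a feeding-induced inhibitor of lipoprotein lipase, is listed in the files under an older symbol and varied more between mice than any member. It had 11.6, 45.6 and 20.2 CPM in KO libraries and 14.3, 31.9 and 8.07 CPM in WT libraries, with overlapping groups (log2 fold change 0.51 ± 0.53 SE, with adjusted p = 0.699 by edgeR). *Ces1d*, a triglyceride hydrolase that supplies lipid for VLDL, had 158, 146 and 153 CPM in KO libraries and 143, 54.0 and 89.0 CPM in WT libraries, so that all KO livers lay above all WT livers (log2 fold change 0.68 ± 0.29 SE, with adjusted p = 0.360 by edgeR). Its family holds near copies such as *Ces1g*, and multiple alignments were counted, so its value is uncertain. Both genes were named after their values were seen.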
